A study of Mus musculus with 24 samples.

Results

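The luminal layer of the mammary gland holds progenitor cells that give rise to milk-secreting alveolar cells, and these cells make receptors and secreted proteins that act against microbes in the duct and in milk. The genes described here are 10 named genes of that kind: Elf5, Kit, Aldh1a3, Cd14, Ltf, Lcn2, Lpo, Ido1, Aqp5 and Dmbt1. They were matched by symbol to the probes of the array, which found 11 probes for 8 of the 10 genes. A further probe carries the older symbol of Ido1, Indo, which makes 12 of 25697 probes and 9 of the 12550 genes tested. Kit, the receptor for stem cell factor and a marker of luminal progenitors, had 0 probes under its symbol or a RefSeq synonym and was not analysed here.

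RNA was taken from the mammary gland of female mice that were either wild type (SNAI2+/+, WT) or homozygous for a LacZ allele of Snai2 (SNAI2 LacZ/LacZ, null). Snai2 encodes Slug, a Snail-family repressor of transcription that in this tissue is made mainly by basal cells. Luminal, basal and stromal cells were separated by surface CD49f and Epcam, and unsorted cells were measured beside them, which gives 8 groups of 3 Illumina bead arrays, 24 in all. The labels give neither the age and strain of the mice nor whether the samples of a group come from separate animals, and the p-values below thus measure spread between samples that may be technical repeats.

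Elf5 is an Ets-family transcription factor that drives alveolar differentiation downstream of the prolactin receptor and Stat5. Aldh1a3 makes retinoic acid, and Cd14 is the co-receptor that hands bacterial lipopolysaccharide to Toll-like receptor Tlr4. Ltf (lactoferrin) and Lcn2 (lipocalin 2) withhold iron from bacteria, Lpo (lactoperoxidase) makes antibacterial oxidants in milk, and Dmbt1 encodes a secreted scavenger receptor that binds bacteria. Ido1 degrades tryptophan, and Aqp5 is a water channel of secretory epithelium.

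Median raw intensity was 93.58 to 143.71 per array, and 12634 to 15825 probes were detected at a detection p below 0.05. Snai2 and Epcam had 0 probes, so the arrays could not check the genotype labels through the deleted gene. All 6 luminal keratin and claudin markers were higher in luminal than in basal cells in both genotypes, and all 6 basal markers tested were lower. The luminal fraction also held the hormone-sensing kind of luminal cell, whose 6 markers averaged 8.67 to 9.24 on the log2 scale on the WT luminal arrays. The sort therefore did not separate progenitors from other luminal cells, and the genes are named for what they are known for. A split of the arrays that no label gives, the third principal component with 9.65% of the variance, put 11 arrays on its positive side. For WT these were the arrays numbered 1 and 2 in every population, and for null mice those numbered 1 in the 3 sorted populations. The genotypes lie unevenly on it, and all 3 null unsorted arrays are on the negative side. On WT replicate 3, which lies on that side, 6 of the 9 genes in basal, 8 in stromal and 7 in unsorted cells had the lowest level of their group, against 38.2%, 38.1% and 39.6% of all genes tested. In luminal cells this was so for 3 of the 9 on WT replicate 3, against 38.5% of all genes, and for 6 on WT replicate 2, against 31.1%.

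Levels are given below as normalised log2 intensity on each array, in the order of replicates 1, 2 and 3, for the brightest passing probe of each gene. Because probes differ in brightness, levels are compared only within a gene. In bulk samples, fewer cells of a type and less RNA per cell cannot be told apart. An adjusted p is limma's, with Benjamini-Hochberg adjustment over all genes tested, and a gene passed below 0.05. Changes are differences of mean log2 levels with the standard error of the fit (SE), and each group has n = 3 arrays.

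Windows from the RefSeq promoter table (GRCm38.p6) were searched for 5 of the 9 measured genes. The remaining genes were not searched. Windows are shown for Lpo, the gene that differed between genotypes, and for Elf5 and Ltf, whose windows hold the Snail-family E-box. Each is the 250 bases before a transcription start, 5′ to 3′ on the gene's strand, and capitals mark CAGGTG or its reverse complement CACCTG, the E-box known to be bound by Slug.
Lpo, chr11:87826115-87826364, minus strand: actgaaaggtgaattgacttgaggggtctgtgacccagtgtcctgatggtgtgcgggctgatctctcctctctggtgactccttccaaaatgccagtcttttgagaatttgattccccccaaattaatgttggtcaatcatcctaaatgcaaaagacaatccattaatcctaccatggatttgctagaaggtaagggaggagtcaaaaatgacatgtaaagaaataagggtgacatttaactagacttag
Elf5, first start, chr2:103411848-103412097, plus strand: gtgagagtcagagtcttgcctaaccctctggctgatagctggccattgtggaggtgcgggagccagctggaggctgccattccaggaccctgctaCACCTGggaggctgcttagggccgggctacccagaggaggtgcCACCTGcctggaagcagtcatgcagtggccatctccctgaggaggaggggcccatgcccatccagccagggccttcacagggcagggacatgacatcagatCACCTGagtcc
Ltf, chr9:111019042-111019291, plus strand: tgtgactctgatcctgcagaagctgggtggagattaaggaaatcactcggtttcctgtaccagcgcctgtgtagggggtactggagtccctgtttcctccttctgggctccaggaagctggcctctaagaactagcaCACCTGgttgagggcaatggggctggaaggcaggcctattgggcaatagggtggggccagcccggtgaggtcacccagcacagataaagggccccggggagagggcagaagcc
The Elf5 window holds 3 copies, whose last bases lie 150, 107 and 6 bases before the start. The Ltf window holds 1, whose last base lies 108 bases before the start. The windows of Lpo, Aqp5, Lcn2 and the second Elf5 start hold 0 copies. Of the 32851 windows in the table, 17.2% hold at least 1 copy. A Grainyhead motif (AACCNGGTT, in 0.24% of windows), a Stat motif (TTCNNNGAA, in 7.02%) and an NF-kB motif (in 3.9%), searched on both strands, had 0 matches in these windows. A match is a stretch of letters, and nothing in these arrays measures binding.

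**Figure D1:**
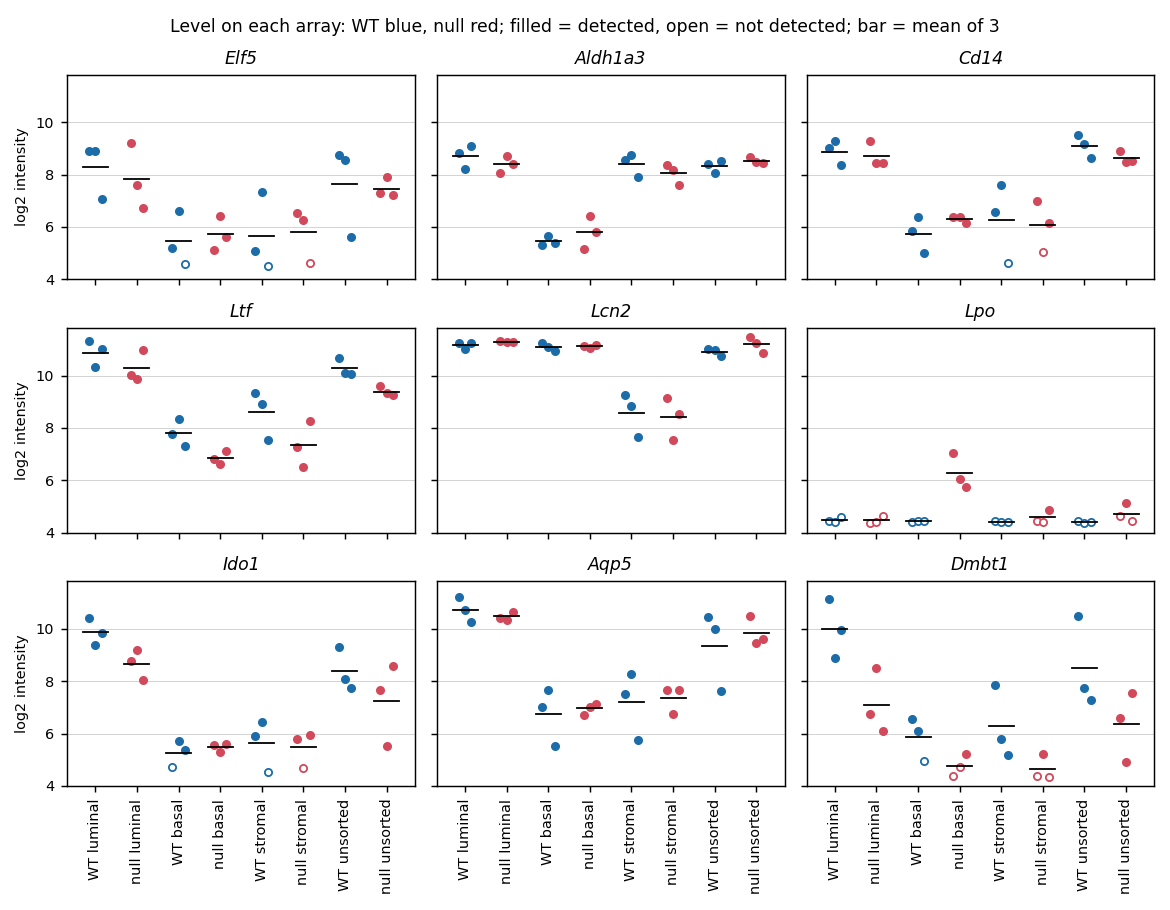
Normalised log2 intensity of each of the 9 measured genes on every array, by group (WT blue, null red; open circles are arrays on which the probe was not detected; the bar is the mean of 3 arrays). Elf5, Cd14, Ltf, Ido1 and Aqp5 were high in luminal and unsorted cells, and Dmbt1 was high in WT luminal cells. Aldh1a3 was low only in basal cells, and Lcn2 was low only in stromal cells. Lpo stood above background on all 3 arrays only in null basal cells.

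Elf5 was high in luminal cells and varied widely between arrays. Its WT luminal levels were 8.89, 8.90 and 7.07, and its null luminal levels 9.21, 7.60 and 6.72. WT basal arrays gave 5.20, 6.62 and 4.58 and null basal arrays 5.13, 6.43 and 5.60. All luminal arrays lay above all basal arrays of the same genotype. Stromal levels were 5.10, 7.34 and 4.50 in WT mice and 6.55, 6.27 and 4.64 in null cells. Unsorted levels were 8.74, 8.55 and 5.62 in WT mice and 7.30, 7.90 and 7.22 in null cells. One WT stromal array thus reached into the luminal range, and one WT unsorted array lay as low as the stromal ones. Mean levels ran from 8.29 ± 1.06 (SD, n = 3) in WT luminal to 5.47 ± 1.04 in WT basal cells, and in that order the only neighbouring groups without overlapping arrays were null unsorted and null stromal cells.

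Aldh1a3 was high everywhere except in basal cells. Its levels were 8.83, 8.20 and 9.09 in WT luminal and 8.08, 8.73 and 8.39 in null luminal cells. Stromal arrays gave 8.57, 8.76 and 7.92 in WT and 8.38, 8.19 and 7.61 in null cells, overlapping the luminal ones. Basal arrays gave 5.31, 5.67 and 5.40 in WT and 5.16, 6.42 and 5.81 in null cells. Every basal array lay below every array of the other populations. Unsorted cells, at 8.41, 8.07 and 8.51 in WT and 8.67, 8.48 and 8.46 in null cells, lay within or just below the luminal range of 8.08 to 9.09.

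Cd14 was high in luminal and unsorted cells. Luminal levels were 9.01, 9.28 and 8.35 in WT mice and 9.30, 8.46 and 8.44 in null cells. Basal levels were 5.86, 6.38 and 5.0 in WT mice and 6.37, 6.39 and 6.14 in null cells. Stromal levels were 6.59, 7.62 and 4.62 in WT mice and 7.01, 5.04 and 6.16 in null cells, with 1 array of each genotype not detected. All luminal arrays lay above all sorted basal and stromal arrays. The highest group mean was that of WT unsorted cells, whose arrays gave 9.51, 9.17 and 8.64, beside 8.91, 8.49 and 8.51 in null unsorted cells. Cd14 is also a monocyte and macrophage gene, and the 8 macrophage markers tested averaged 8.29, 7.72 and 7.37 on the WT unsorted arrays, 5.34, 5.47 and 6.75 on the null unsorted arrays and 4.72 to 5.83 on the sorted arrays. Of these 8 markers, Lyz2 and Cd68 were detected on 3 of 3 WT luminal arrays, Adgre1, C1qb and Mrc1 on 2, C1qa and C1qc on 1 and Csf1r on 0. Their part in the Cd14 levels was not tested.

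Ltf was also high in luminal and unsorted cells, with lower mean levels in sorted basal and stromal cells. The highest WT stromal array, at 9.32, lay within the null unsorted range. Luminal arrays gave 11.31, 10.31 and 11.00 in WT and 10.03, 9.88 and 10.96 in null cells. Basal arrays gave 7.76, 8.36 and 7.32 in WT and 6.80, 6.61 and 7.11 in null cells. In basal cells the 3 null arrays lay below the 3 WT arrays. Stromal arrays gave 9.32, 8.92 and 7.53 in WT and 7.27, 6.51 and 8.27 in null cells. Unsorted arrays gave 10.69, 10.11 and 10.05 in WT and 9.59, 9.32 and 9.24 in null cells, again without overlap. The mean was lower in null than in WT cells in all 4 populations by the brighter of its probes.

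Lcn2 was high in both epithelial populations, with overlapping luminal and basal arrays in WT mice. Luminal levels were 11.26, 11.01 and 11.26 in WT mice and 11.31, 11.27 and 11.30 in null cells. Basal levels were 11.24, 11.09 and 10.94 in WT mice and 11.15, 11.07 and 11.16 in null cells. Stromal cells were lower, at 9.26, 8.82 and 7.66 in WT and 9.14, 7.54 and 8.54 in null cells. Unsorted cells, at 11.00, 10.97 and 10.75 in WT and 11.47, 11.25 and 10.85 in null cells, lay with the epithelial ones. Lcn2 is also stored in neutrophil granules, and the 6 neutrophil markers tested averaged 4.54 to 5.44 over all 24 arrays. Among them S100a8 was detected on 3 of 3 luminal arrays of each genotype (means 5.50 in WT and 5.81 in null cells), and S100a9 on 3 of 3 unsorted arrays of each genotype (6.91 and 6.04). Their part in the Lcn2 levels was not tested.

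Lpo was detected on 5 of the 24 arrays, 3 of them null basal. Null basal levels were 7.03, 6.06 and 5.76, while WT basal levels were 4.42, 4.44 and 4.44 and none was detected. The other detected arrays were 1 null stromal array at 4.88 and 1 null unsorted array at 5.13. Luminal levels were 4.43, 4.39 and 4.58 in WT mice and 4.36, 4.41 and 4.63 in null cells, with 0 arrays detected. Null basal cells were the top group, and their arrays did not overlap those of the next group, null unsorted cells. The probe passed the filter on dim probes only through the null basal arrays.

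Dmbt1 was high in WT luminal cells and spread widely. Luminal levels were 11.15, 8.87 and 9.95 in WT mice and 6.75, 8.49 and 6.10 in null cells. The 3 null luminal arrays lay below the 3 WT luminal arrays. Basal levels were 6.55, 6.10 and 4.95 in WT mice and 4.38, 4.71 and 5.20 in null cells, and stromal levels 7.85, 5.81 and 5.19 in WT and 4.38, 5.22 and 4.35 in null cells. Only 1 of 3 null basal and 1 of 3 null stromal arrays detected the probe. Unsorted levels were 10.49, 7.75 and 7.30 in WT mice and 6.60, 4.93 and 7.56 in null cells, which overlap.

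Ido1 was high in luminal cells, at 10.42, 9.38 and 9.85 in WT and 8.77, 9.19 and 8.06 in null cells, without overlap between genotypes. Basal levels were 4.71, 5.72 and 5.36 in WT mice and 5.58, 5.30 and 5.62 in null cells. Stromal levels were 5.91, 6.44 and 4.55 in WT mice and 5.79, 4.70 and 5.93 in null cells. Basal and stromal arrays of both genotypes overlapped near the detection limit. Unsorted levels were 9.32, 8.08 and 7.74 in WT mice and 7.67, 5.52 and 8.58 in null cells. Dendritic cells also make Ido1, and the 3 dendritic markers tested averaged 4.45 to 5.34 on the sorted arrays, 5.22, 5.67 and 6.24 on WT unsorted arrays and 4.91, 4.73 and 5.69 on null unsorted arrays.

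Aqp5 was high in luminal cells of both genotypes, at 11.21, 10.71 and 10.27 in WT and 10.43, 10.35 and 10.66 in null cells. Basal levels were 7.02, 7.65 and 5.53 in WT mice and 6.72, 7.01 and 7.14 in null cells. Stromal levels were 7.50, 8.29 and 5.77 in WT mice and 7.65, 6.75 and 7.65 in null cells. All luminal arrays lay above all basal and stromal arrays. Unsorted levels were 10.47, 9.99 and 7.62 in WT mice and 10.49, 9.46 and 9.62 in null cells, with 1 WT array in the stromal range.

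Which of these genes mark the luminal population was asked by comparing WT luminal with WT basal cells. In WT mice, 7 of the 9 genes were higher in luminal than in basal cells, and 0 were lower. Over all genes tested, 15.2% passed in either direction, 7.69% higher and 7.48% lower in luminal cells. Ido1 had the largest change of the 9, 4.62 ± 0.61 (SE, adjusted p = 2.43e-05), which is 24.6-fold. Dmbt1 was 4.12 ± 0.85 higher (adjusted p = 0.00169) and Aqp5 4.0 ± 0.64 (adjusted p = 0.000176). Aldh1a3 changed by 3.24 ± 0.30 (adjusted p = 6.38e-07), Cd14 by 3.14 ± 0.56, Ltf by 3.06 ± 0.44 and Elf5 by 2.82 ± 0.85 (adjusted p = 0.0284). Lcn2 and Lpo did not pass, with differences of 0.09 ± 0.34 and 0.03 ± 0.24. The median log2 change of the 9 genes was 3.14, against 0.01 over all genes, and 7 genes had no overlapping arrays with luminal higher, as did 16.4% of all genes, while 0 lay the other way, against 15.1% of all genes.

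The Dmbt1 call was lost on each side of the array split and the Ido1 call on its negative side. Elf5 was the only one of these calls to be lost when 1 array was left out. Its brightest probe no longer passed without WT luminal replicate 1 or 2, or without WT basal replicate 1 or 3 (adjusted p up to 0.118), nor without the filter on dim probes or on the negative side of the array split. Its other probes gave 2.99 ± 0.53 and 2.58 ± 0.60 (adjusted p = 0.000421 and 0.00504, over all passing probes). On the negative side of the split, with 1 WT array of each population, 4 of the 9 genes passed in place of 7.

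WT luminal and WT stromal cells, a comparison that shares the luminal arrays with the previous one, gave 7 of 9 genes higher in luminal cells and 0 lower. Over all genes tested, 24.6% passed and 12.4% were higher in luminal cells. The gene sets differed: Lcn2 passed against stromal cells, at 2.60 ± 0.34 (adjusted p = 8e-06), and Aldh1a3 did not, at 0.29 ± 0.30 (adjusted p = 0.557). Ido1 was again the most changed, at 4.25 ± 0.61 (adjusted p = 2.48e-05), followed by Dmbt1 at 3.71 ± 0.85 and Aqp5 at 3.55 ± 0.64. Elf5, Cd14 and Ltf were higher by 2.64 ± 0.85, 2.60 ± 0.56 and 2.28 ± 0.44. Lpo, undetected in both groups, did not pass (adjusted p = 0.928). Arrays did not overlap for 6 genes, with 19.2% of all genes as background, and Elf5 was the called gene whose arrays did overlap. The Dmbt1 call was lost on each side of the array split. The Elf5 call was lost without WT luminal replicate 1 or 2, or WT stromal replicate 1 or 3 (adjusted p up to 0.127). Its other probes gave 2.29 ± 0.53 and 2.89 ± 0.60 (adjusted p = 0.00263 and 0.00108 over all passing probes).

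**Figure D2:**
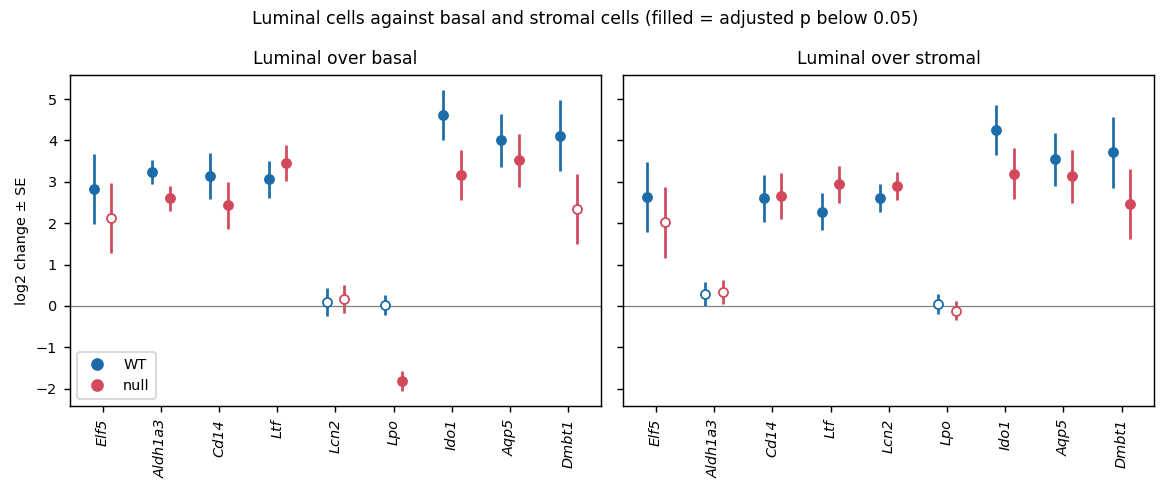
Log2 change of luminal over basal cells (left) and luminal over stromal cells (right) for the 9 genes, with the SE of the fit, WT in blue and null in red; filled circles have an adjusted p below 0.05. Most genes lie between 2 and 5 on the log2 scale, Lcn2 lies near 0 against basal cells, Aldh1a3 lies near 0 against stromal cells, and Lpo is below 0 against basal cells in null mice.

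The same comparison within null mice asks whether the luminal pattern is seen without Slug. Of the 9 genes, 5 were higher in null luminal than in null basal cells and 1, Lpo, was lower. Over all genes tested, 11.3% passed, 5.25% higher and 6.07% lower. Aqp5 was higher by 3.52 ± 0.64 (adjusted p = 0.000736), Ltf by 3.45 ± 0.44 (adjusted p = 1.91e-05), Ido1 by 3.17 ± 0.61, Aldh1a3 by 2.60 ± 0.30 and Cd14 by 2.43 ± 0.56. Dmbt1 and Elf5, with differences of 2.35 ± 0.85 (adjusted p = 0.0845) and 2.12 ± 0.85 (adjusted p = 0.128), did not pass, although their arrays did not overlap. For Elf5 the other probes passed, at 2.61 ± 0.53 and 2.26 ± 0.60 (adjusted p = 0.00187 and 0.0163 over all passing probes). Lpo was not detected on any null luminal array and was at least 2.64-fold higher in null basal cells (adjusted p = 3.18e-05), measured means 6.28 and 4.47. Its probe passed the filter on dim probes only through the null basal arrays, so it had been selected for being high there. Under other ways of processing the log2 difference, luminal over basal, ran from -2.67 to -0.77, and the smallest lies below that bound. Arrays did not overlap for 8 genes with luminal higher, against 15.2% of all genes, and for 1, Lpo, with luminal lower, against 13.9%. Dmbt1 and Elf5 passed in WT and not in null mice, which does not show that the genotypes differ; the interaction described further on tests that and did not pass for either.

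Null luminal exceeded null stromal cells for 6 of 9 genes, and 0 were lower. Over all genes tested, 25.5% passed and 12.8% were higher in luminal cells. Ido1 was higher by 3.20 ± 0.61, Aqp5 by 3.13 ± 0.64, Ltf by 2.94 ± 0.44, Lcn2 by 2.89 ± 0.34 (adjusted p = 1.86e-06), Cd14 by 2.66 ± 0.56 and Dmbt1 by 2.46 ± 0.85 (adjusted p = 0.0376). The Dmbt1 call was lost without null luminal replicate 1 or 2, or null stromal replicate 1 or 3. It was also lost in 5 of 14 other settings, which were no background correction, the second deposited table, no filter on dim probes and each side of the split, with values down to 1.24 and an adjusted p up to 0.404. Aldh1a3 gave 0.34 ± 0.30 and the brightest Elf5 probe 2.02 ± 0.85 (adjusted p = 0.0901), which did not pass. The other Elf5 probes passed, at 2.0 ± 0.53 and 3.01 ± 0.60 (adjusted p = 0.00733 and 0.000678 over all passing probes). For 7 genes all 3 luminal arrays lay above all 3 stromal ones, as for 20.6% of all genes.

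The study's question is what loss of Slug does in each population. In basal cells, where Slug is known to act, Lpo was higher in null than in WT mice, and it was the only one of the 9 genes to pass in any of the 4 populations. The difference was 1.85 ± 0.24 on the log2 scale (adjusted p = 0.000219), and since all WT basal arrays left the probe undetected, it stands as at least 2.59-fold. The size depends on the background step: with no background correction, or from the second deposited table, the difference was 0.79 on the log2 scale, below that bound and still past the threshold. Over all genes tested, 0.837% passed in basal cells (105 of 12550), and 0.446% were higher in null cells. An unadjusted p below 0.05 by limma was reached by 2 of the 9 genes and by 1011 of all genes. The probe passed the filter because of these 3 null arrays, so a gene chosen this way had to differ. Leaving out any 1 of the 6 basal arrays gave 1.48 to 2.12, each past the threshold. Within the negative side of the array split, which leaves 1 WT and 2 null arrays, it was 1.47 (adjusted p = 0.369), and within the positive side, 2 WT and 1 null, it was 2.60 (adjusted p = 0.0137). When the fit was limited to the 6 basal arrays its adjusted p was 0.156.

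Beside this result, the 6 luminal markers averaged between 7.56 and 7.98 on the WT basal arrays and between 8.27 and 9.04 on the null basal arrays, all 6 with a higher mean in null cells and 0 past the threshold. None of the 6 was undetected in either group. The 3 milk protein genes tested averaged 5.35 to 6.25 on WT and 6.02 to 7.51 on null basal arrays, of which Csn2 was undetected in WT and Lalba in null cells. Lpo itself was undetected in luminal cells of both genotypes. The 5 endothelial markers averaged 6.51, 5.99 and 4.89 in WT basal and 4.66 to 4.84 in null basal cells, where Cdh5, Flt1, Kdr and Tek were undetected, and 1 of the 5, Flt1, was lower in null cells past the threshold (-1.46, adjusted p = 0.0264). The 6 fibroblast markers averaged 7.70 to 8.33 on WT basal and 6.72 to 7.44 on null basal arrays, 0 of them past the threshold and 0 undetected. The part of these marker differences in the basal results of Lpo, Ltf and Dmbt1 was not tested.

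The other 8 genes did not pass in basal cells. Ltf was at 7.81 ± 0.52 in WT and 6.84 ± 0.25 in null basal cells (SD, n = 3), a difference of -0.97 ± 0.44 (adjusted p = 0.58) without overlap, as seen with null lower in 7.12% of all genes. Dmbt1 was at 5.86 ± 0.83 and 4.77 ± 0.41, a difference of -1.10 ± 0.85 (adjusted p = 0.916). Cd14, Aldh1a3, Elf5, Ido1, Aqp5 and Lcn2 differed by 0.55 or less on the log2 scale, all with an adjusted p of 0.959 or more.

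In luminal cells 0 of 9 genes passed, and 0.00797% of all genes did, which is 1 gene in 12550. At an unadjusted p below 0.05, 1 of the 9 genes and 433 of all genes passed by limma. That gene was Dmbt1, at 9.99 ± 1.14 in WT and 7.11 ± 1.24 in null luminal cells (SD, n = 3), a difference of -2.88 ± 0.85 (unadjusted p = 0.00286, adjusted p = 0.768). Ido1 was at 9.88 ± 0.52 and 8.67 ± 0.57, a difference of -1.21 ± 0.61 (unadjusted p = 0.0634). For both, the 3 null arrays lay below the 3 WT arrays, as in 4.91% of all genes. Lcn2 had 3 null arrays above the 3 WT arrays, as in 4.1% of all genes, but by 0.11 ± 0.34. Elf5, Aldh1a3, Cd14, Aqp5 and Ltf had means 0.15 to 0.58 lower in null cells, within their spread. On the negative and positive sides of the array split the differences were -2.65 and -3.26 for Dmbt1 and -1.22 and -1.13 for Ido1. Each side sets 1 array of a genotype against 2 of the other, and neither gene passed on either side.

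In stromal cells 0 of 9 genes passed, and 0.0239% of all genes did. At an unadjusted p below 0.05, 1 of the 9 and 558 of all genes passed. Ltf gave -1.24 ± 0.44 (unadjusted p = 0.0115, adjusted p = 0.946) and Dmbt1 -1.63 ± 0.85 (unadjusted p = 0.0688). Both differed between the sides of the array split: on its negative side the values were -0.13 and -0.40, and on its positive side -1.85 and -2.44. The remaining 7 genes differed by at most 0.35 on the log2 scale. For 0 of 9 genes did the genotypes' arrays not overlap, against 3.35% of all genes with null higher and 3.63% with null lower.

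In unsorted cells 0 of 9 genes passed, and 0.279% of all genes did. At an unadjusted p below 0.05, 1 of the 9 and 1471 of all genes passed. Dmbt1 was at 8.51 ± 1.73 in WT and 6.36 ± 1.33 in null cells (SD, n = 3), a difference of -2.15 ± 0.85 (adjusted p = 0.314). Ido1 gave -1.12 ± 0.61 (adjusted p = 0.499) and Ltf -0.90 ± 0.44 (adjusted p = 0.444), the latter without overlap, as in 6.56% of all genes; 0 of 9 lay without overlap the other way, against 9.07%. The macrophage markers given beside Cd14 fell in this comparison, 4 of 8 past the threshold (Csf1r, C1qa, C1qb and C1qc), with 0 of 8 undetected in either group. The 6 luminal markers averaged 9.87, 9.72 and 9.45 in WT and 10.81, 10.92 and 10.30 in null unsorted cells, and the 6 fibroblast markers 10.17, 10.28 and 10.86 against 9.16, 9.17 and 10.67. The part of this makeup in the unsorted values was not tested, and all 3 null arrays are on the negative side of the split, where the Dmbt1 value was -0.94 against 1 WT array.

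**Figure D3:**
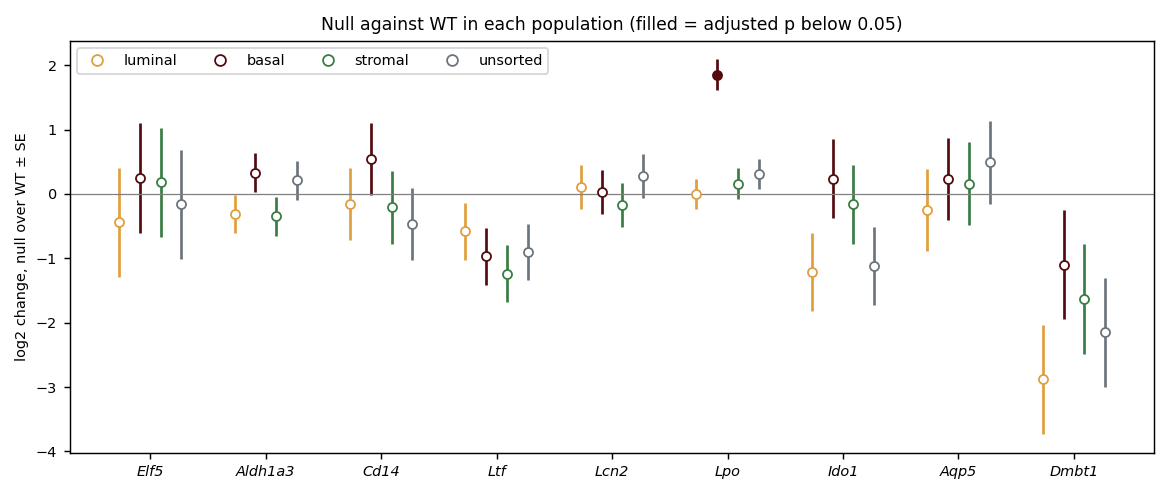
Log2 change of null over WT cells for the 9 genes in each of the 4 populations, with the SE of the fit; the filled circle has an adjusted p below 0.05. Lpo in basal cells, at 1.85, is the one value past the threshold, and the values of Dmbt1 and Ltf are below 0 in all 4 populations without passing.

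Dmbt1 and Ltf had lower means in null cells in each of the 4 populations, although Dmbt1 in basal cells was at 0.01 on the negative side of the split, so their mean difference over the populations was also fitted, a comparison added after these values were seen. With the replicate number within a genotype as a random block, since those arrays may share animals, Dmbt1 gave -1.94 (adjusted p = 0.155), Ltf -0.92 (adjusted p = 0.248) and Lpo 0.58 (adjusted p = 0.195). In that fit 0 of 9 genes and 0.0637% of all genes passed. Without the block, Dmbt1 (adjusted p = 0.031) and Lpo (adjusted p = 0.0251) passed, with 0.9% of all genes. With the side of the array split as a term in place of the block, 0 of 9 passed, with 0.295% of all genes, and Dmbt1 was at -1.74 (adjusted p = 0.124).

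The probes of Ltf disagree on the null effect. The dimmer Ltf probe was detected on 12 arrays, those of luminal and unsorted cells, and gave null over WT differences of 0.00 in luminal and 0.07 in unsorted cells, where the brighter probe gave -0.58 and -0.90. Both passed for luminal over basal cells in WT, the dimmer at 1.34 ± 0.30 (adjusted p = 0.00399 over all passing probes). The Elf5 probes gave null over WT differences between -0.44 and 0.47 in the 4 populations, and 0 passed. Which Ltf transcripts each probe reads is not given in the sources used here.

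Whether the null effect differs between basal and luminal cells was tested as an interaction in the same fit. Lpo was the only one of the 9 genes to pass, with a null effect 1.85 ± 0.35 larger in basal than in luminal cells (adjusted p = 0.0282), from 1.85 in basal and 0.00 in luminal cells. Over all genes tested, 0.167% passed, 0.143% with the larger effect in basal cells. The probe passed the filter on dim probes through the null basal arrays that carry this effect, so it had been selected for being high there. The Lpo call was lost without any 1 of 9 of the 12 arrays, among them all 3 WT luminal and all 3 WT basal arrays, with values of 1.47 to 2.11 over the 12. The differences of Dmbt1, 1.78 ± 1.20, Ido1, 1.45 ± 0.87, and Elf5, 0.70 ± 1.20, did not pass (adjusted p = 1 for each).

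Genes that share the known roles of these 9 were described from 3 lists. Of 16 alveolar and progenitor genes tested, 9 were higher in WT luminal than basal cells and 0 lower, with a median log2 change of 1.14, against 0.01 over all genes and 15.2% passing. Spp1, the secreted glycoprotein osteopontin, was higher by 3.30 ± 0.84 (adjusted p = 0.00958) and Ehf, an Ets factor related to Elf5, by 2.86 ± 0.44 (adjusted p = 9.65e-05). Notch3, a Notch receptor of luminal cells, was higher by 2.06 ± 0.41 and Plet1, a surface marker of alveolar progenitors, by 1.70 ± 0.38. In null mice 6 of the 16 were higher and 0 lower, where 5.25% of all genes were higher and 6.07% lower.

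Of 23 secretory defence genes tested, 10 were higher and 2 lower in WT luminal than basal cells, with a median of 0.50. Among all genes 7.69% were higher and 7.48% lower. Hp (haptoglobin), which binds haemoglobin, was higher by 2.83 ± 0.39 (adjusted p = 3.38e-05), Wfdc18, a whey acidic protein relative, by 2.56 ± 0.33, Ceacam1, an adhesion protein, by 2.56 ± 0.47 and Muc1, a membrane mucin, by 2.36 ± 0.23 (adjusted p = 9.84e-07). The 2 lower genes were Slpi, a secreted protease inhibitor, at -2.18 ± 0.45, and Chil1, a chitinase-like protein, at -1.82 ± 0.55. Some defence genes were therefore higher in basal than in luminal cells, whereas Lcn2 differed little between them (0.09 ± 0.34, luminal over basal in WT). Against WT stromal cells 13 of the 23 were higher in luminal cells and 5 lower, where 12.4% of all genes were higher and 12.2% lower. The 5 were Saa3 at -2.64 ± 0.74, Duoxa1 at -2.58 ± 0.34, C3 at -1.37 ± 0.32, Xdh at -1.17 ± 0.28 and Cxcl1 at -1.14 ± 0.20, named here after their values were seen. Saa3 and Duoxa1 were not detected on any WT luminal array.

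Of 22 partners of the 9 genes in their pathways, 5 were higher and 2 lower in WT luminal than basal cells, with a median of 0.02, where 7.69% of all genes were higher and 7.48% lower. Against stromal cells 4 were higher and 4 lower, where 12.4% and 12.2% of all genes were. Prlr, the prolactin receptor upstream of Elf5 and also one of the hormone-sensing markers, was higher than in basal cells by 3.82 ± 0.73 (adjusted p = 0.000931), and Ly96, the Tlr4 cofactor MD-2, by 1.15 ± 0.28. Wars, a tryptophan tRNA synthetase that uses the substrate of Ido1, was higher by 1.05 ± 0.31, and Socs2, a feedback inhibitor of Stat5 signalling, was lower by -1.02 ± 0.33. Kitl, the ligand of Kit, was lower in luminal cells by -0.81 ± 0.17 (adjusted p = 0.00182). Aldh1a1, another retinoic acid enzyme, was lower than in stromal cells by -3.12 ± 0.44 (adjusted p = 2.05e-05), where Aldh1a3 was not (0.29 ± 0.30). Kitl and Aldh1a1 were named after their values were seen. In the 3 lists, 0 genes passed in any null against WT comparison or in the interaction.

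**Figure D4:**
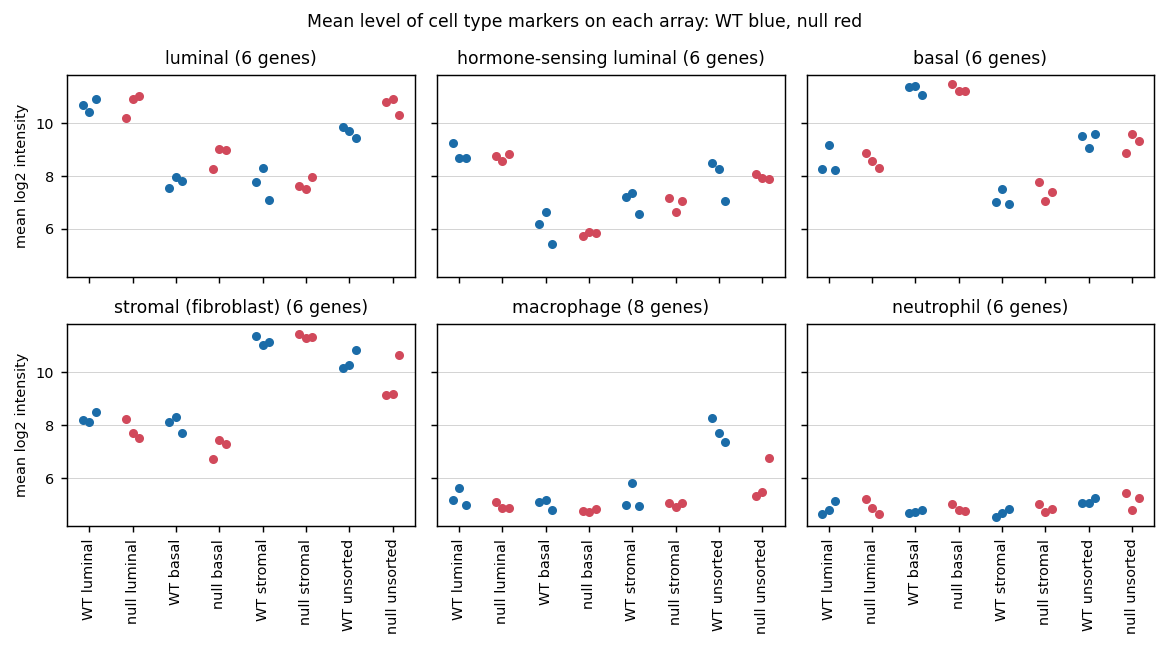
Mean log2 intensity of 6 lists of cell type markers on every array, by group (WT blue, null red). Basal and fibroblast markers are highest in the population of that name, luminal markers are high in luminal cells and as high on the null unsorted arrays, the luminal list is higher on the 3 null basal than on the 3 WT basal arrays, the macrophage list is high on the WT unsorted arrays, and the neutrophil list stays between 4.54 and 5.44.

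Across the 24 arrays, which share populations and the array split, Pearson correlations between the 9 genes describe how alike their patterns were. Cd14 and Aqp5 were the most alike pair, at 0.92, followed by Ido1 with Aqp5 at 0.89 and Ltf with Ido1 at 0.88. Lpo had the least in common, from -0.54 with Aldh1a3 to 0.20 with Lcn2, but was detected on only 5 of the 24 arrays, 3 of them null basal. The genes outside the 9 most like their mean standardised pattern were Tmprss2 (0.970), Csn3 (0.966), Wfdc18 (0.962), Areg (0.962) and Tlcd4 (0.960).

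For single genes, the closest patterns over the 24 arrays were those of Pof1b (0.890) and Areg (0.888) to Elf5, S100a13 and Unc93b1 (both 0.937) to Aldh1a3, and Wfdc18 (0.960) and Csn3 (0.957) to Cd14. Fam25c (0.927) and Gde1 (0.924) were closest to Ltf, Fxyd3 (0.981) and Cxadr (0.967) to Lcn2, and Trh (0.903) and Gpx2 (0.901) to Lpo. Most of the Lpo levels in these values were undetected. Ang4 (0.944) and Slc5a5 (0.934) were closest to Ido1, Tlcd4 (0.975) and Areg (0.969) to Aqp5, and Ddt (0.850) and Gatb (0.831) to Dmbt1. Csn3 and Wfdc18 encode milk proteins, and Areg encodes amphiregulin, an epidermal growth factor receptor ligand.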

How the data were processed

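The authors deposited probe intensity on a linear scale for 24 arrays, not normalized, with a detection p-value per probe, per the file headers; a second deposited table holds intensities that differed from a quantile normalization of the first by at most 0.0124 on the log2 scale. The sources used here name neither scanner software nor slides. With neqc (limma 3.58.1, R 4.3.3), normexp used the detection p-values to correct background (offset 16), followed by quantile normalization and log2. Probes with a detection p below 0.05 on at least 3 of 24 arrays were kept (17878), symbols were updated through a RefSeq table (20733 current, 3868 updated, 1061 unmatched, 35 dates or numbers), and each gene was its passing probe of highest mean (12550 genes). The fit (lmFit, eBayes) covered all 24 arrays with a mean for each group. P-values are two-sided and Benjamini-Hochberg adjusted within a comparison, and a gene passed below 0.05. Where a probe was undetected on all arrays of a group, the difference is given as at least N-fold, against the higher, per array, of its own value and the lowest detected signal. The number of arrays limits the precision (median SE 0.301).

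The genes, lists and tests were chosen with earlier results of these data known. From each list, the 4 genes with the largest change among those past the threshold in WT luminal against basal cells were named. The fit of null against WT basal cells was tested on simulated log2 values with independent arrays. The background, normalization, filter and probe steps were not simulated. Alternatives were other backgrounds, scalings, filters, probes, array weights, blocks and each array left out. Same-numbered arrays were correlated in their deviations from group means. In WT the correlation was above 0.1 in every pair for luminal with basal (0.217, 0.192 and 0.416) and luminal with stromal cells (0.189, 0.273 and 0.358). Over all populations, 24 of 36 same-numbered pairs within a genotype were above 0.1 (range -0.086 to 0.498), as were 22 of 48 across genotypes (range -0.223 to 0.293).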

Additional observations from a re-analysis of the deposited data

Results flagged for a closer look

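The null effect on Lpo differed between basal and luminal cells by a test of the difference itself, at 1.85 on the log2 scale (SE 0.35, limma adjusted p = 0.0282). Lpo was undetected on all luminal arrays of both genotypes, so the luminal effect of 0.00 is one between levels that were not measured above background, and the call was lost without any 1 of 9 of the 12 arrays. The probe entered the test because the 3 null basal arrays, which carry the effect, brought it past the filter on dim probes, so it was not chosen independently of the difference.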

How the results depend on the processing

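No called direction reversed under any alternative run. In basal cells, 1 of 9 genes passed for null against WT, and 0 with only the arrays compared in the fit or on the negative side of the array split. For WT luminal over basal cells the negative side gave 4 in place of 7. For the interaction, 0 passed with no background correction, with the second deposited table, with median scaling, with only the arrays compared, and on either side of the split. For the mean over 4 populations 2 passed with no replicate block, 0 as reported. Leaving out 1 array gave 6 to 7 genes for each WT population comparison, 6 for null luminal over basal, 5 to 6 for null luminal over stromal, 1 for null against WT in basal cells, 0 in the other populations, and 0 to 1 for the interaction. With the replicate number as a block, 7 genes passed in each null population comparison in place of 6, and no other count of calls changed. For single genes, other settings left 1017 values on their side of the threshold, 25 lost a call, 11 gained one, and 45 changed sign with no call either way; the cause was not tested. Counts over all genes moved more: null against WT in basal cells gave 105, from 1 on the negative side to 770 with array weights, and in unsorted cells 35, from 0 with only the arrays compared to 391 with array weights. Leaving out null unsorted replicate 3 gave 503. Median scaling put the median null over WT change of all genes in unsorted cells at 0.167, against 0.01 as reported. The Lpo difference in basal cells ran from 0.79 to 2.60 over these settings. Low signal limits Lpo, which 19 of 24 arrays did not detect.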
